A study of Homo sapiens with 12 samples.

Results

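The comparison covers 6 of the 12 libraries of the series: 3 of macrophages polarized toward M1 and 3 polarized toward M2, all in solvent (DMSO) and without MCHP, the compound added in the other 6, chosen by their labels. The labels name the cells (PPRE)-eGEP-THP-1 without spelling out the added construct. THP-1 is an established line of human leukaemic monocytes. Both groups were first turned into macrophages with phorbol 12-myristate 13-acetate (PMA) at 25 ng/mL during 48 h, followed by a rest of 24 h. The M1 DMSO group then received lipopolysaccharide (LPS) at 100 ng/mL with interferon gamma at 20 ng/mL for 24 h, and the M2 DMSO group received interleukin 4 and interleukin 13 at 20 ng/mL each for 24 h. A group of unpolarized macrophages is not part of this comparison, so each difference below is M1 against M2 and does not say which of the 2 states had moved from the resting level. The replicates are labelled by number only. Nothing says whether they came from separate cultures, so p-values measure the spread between these libraries, which may be technical.

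LPS is sensed by TLR4 with its helpers CD14 and LY96 and signals through the adaptors MYD88 and TICAM1 to NF-kB and, by way of induced interferon beta, to type I interferon genes. Interferon gamma acts through its receptor and the kinases JAK1 and JAK2 on gamma-activated sites, and induces the transcription factor IRF1. Interleukins 4 and 13 act through receptors that share the IL4R chain on STAT6, which drives the alternative program of lectins, chemokines such as CCL22 and lipid-handling genes in monocytes and macrophages.

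The 6 libraries held 14671829 to 16840725 gene counts, and 15252 of the 58907 genes in the table passed the filter on low counts. The first principal component of the 6 libraries separated M1 from M2 and carried 76.0% of the variance. The second carried 9.49% and set M2 DMSO replicate 1 apart from the other 5 libraries. Levels are given in CPM, the count of a gene relative to the library total scaled with TMM factors. Among genes at 10 CPM or more, its log2 deviation from its group's remaining libraries had an SD of 0.315. The SD was 0.117 to 0.189 in the other 5. In the 43 tested type I interferon genes it lay above the mean of M2 replicates 2 and 3 in 37, with a median log2 deviation of 0.48. For some named genes whose call or value changed when it was left out, the value without it is given. This was not done for all of them, so an absent value does not mean that the gene was stable.

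Of the 15252 genes tested, 6489 (42.5%) differed between M1 and M2 at an adjusted p under 0.05 by edgeR's quasi-likelihood test. Of these, 3296 (21.6% of the genes tested) were higher in M1 and 3193 (20.9%) were higher in M2. Every count of called list members below is to be read against these shares. A difference of at least 2-fold, on the point estimate, was added to the call for 1011 genes higher in M1 (6.63%) and 926 higher in M2 (6.07%). The largest differences lay on the M1 side: 81 called genes were at least 16-fold higher in M1 and 49 at least 16-fold higher in M2. Every difference below is a log2 difference, M1 minus M2, so that a positive value is higher in M1, and the median over all genes tested was -0.004. With the total count as the only scaling this median moved to -0.13, and 2395 genes were called higher in M1 and 4532 higher in M2, so that the share of calls on the M1 side went from 50.8% to 34.6%.

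**Figure D1:**
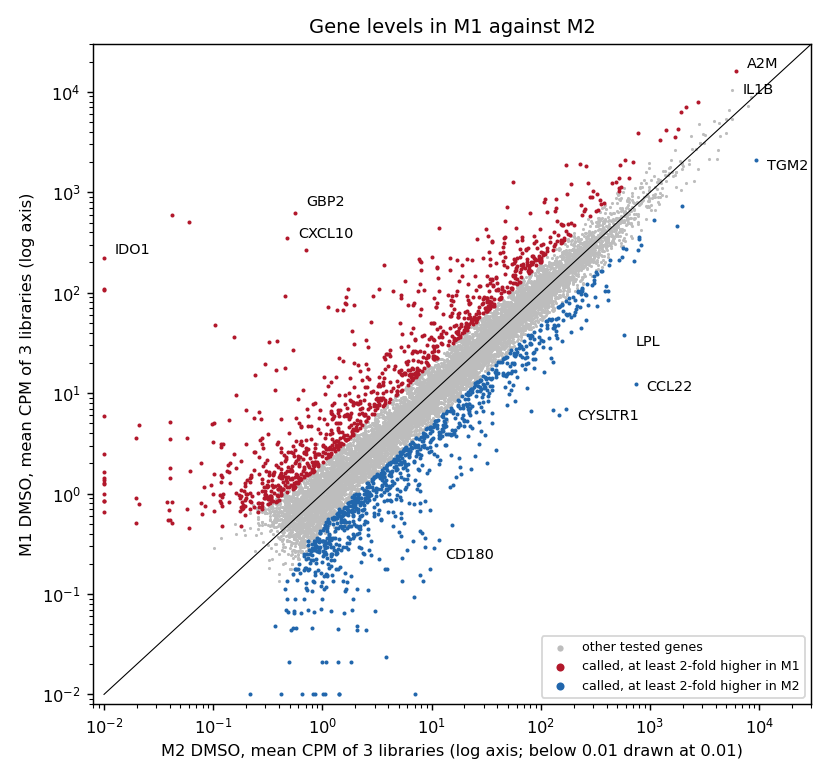
Each point is a tested gene, at its mean CPM of 3 libraries in M2 DMSO (x axis) and M1 DMSO (y axis), both on log axes with values below 0.01 drawn at 0.01. Red points are the 1011 genes called and at least 2-fold higher in M1, blue points the 926 called and at least 2-fold higher in M2, and the line marks equal levels. Points such as IDO1, GBP2 and CXCL10 lie far above the line and CCL22, LPL and CYSLTR1 far below it.

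Stretches of the promoters of 9 of the genes described below, from both sides of the line, show the letters that such factors recognise. The sequences are RefSeq promoters (GRCh38.p14, the 250 bases before each RefSeq start), written 5′ to 3′ on the strand of the gene. These starts can differ from those of the gene models that were counted. The TAP1 stretch lies inside the TAP1 model whose coordinates are given below. They were picked after the values were seen, because they hold the letters, and show where these lie in genes the results turn on. Capitals mark GAAANNGAA, the core of the interferon-stimulated response element, on either strand, and in TAP1 they cover 2 overlapping matches:
CXCL10 (chr4:76023695-76023733, minus strand): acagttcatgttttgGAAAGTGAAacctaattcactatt
CXCL9 (chr4:76007657-76007695, minus strand): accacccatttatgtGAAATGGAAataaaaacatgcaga
GBP1 (chr1:89065311-89065349, minus strand): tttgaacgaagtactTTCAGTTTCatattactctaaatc
RSAD2 (chr2:6865791-6865829, plus strand): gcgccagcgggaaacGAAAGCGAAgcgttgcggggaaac
IFIT1 (chr10:89392493-89392544, plus strand): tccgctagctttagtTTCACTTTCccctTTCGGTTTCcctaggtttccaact
TAP1 (chr6:32853808-32853852, minus strand): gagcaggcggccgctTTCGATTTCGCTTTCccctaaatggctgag

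In IRF1 and CISH the capitals mark TTC and GAA separated by 3 bases (the gamma-activated form), and in CYSLTR1 by 4 bases (the form that STAT6 also binds):
IRF1 (chr5:132490874-132490912, minus strand): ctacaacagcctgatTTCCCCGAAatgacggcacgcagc
CISH, farther from the start (chr3:50611981-50612024, minus strand): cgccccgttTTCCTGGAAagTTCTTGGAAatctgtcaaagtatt
CISH, nearer to the start (chr3:50611863-50611918, minus strand): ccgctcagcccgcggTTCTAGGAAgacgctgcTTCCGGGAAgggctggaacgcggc
CYSLTR1 (chrX:78327739-78327778, minus strand): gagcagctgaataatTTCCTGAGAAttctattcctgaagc

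These letters are common. Of 27305 promoters in the RefSeq table, 8.29% held the response element core, 7.88% the form with 3 bases between and 6.37% the form with 4, counted on both strands from 250 bases before to 50 after each start. A promoter was found for 58.6% of the genes at least 2-fold higher in M1 and 63.3% of those higher in M2, too few for a share over either set, so that check is void. A match is a description of the letters and not evidence of a bound site.

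The genes that sense the polarizing signals were measured next. CD14, which hands LPS to TLR4, stood at 69.3 ± 7.63 CPM in M1 and 7.98 ± 0.974 in M2 (SD, n = 3 libraries), a difference of 3.11 ± 0.11 (SE, adjusted p = 3.9e-14 by edgeR). TLR4 itself was at 31.8 ± 0.584 CPM in M1 and 23.2 ± 0.524 in M2 (difference 0.46), and LY96 was not called. The adaptors MYD88 (1.26) and TICAM1 (0.67) and the kinase JAK2 (1.32) were higher in M1. JAK1 was not called, and TYK2 was not called except without M2 DMSO replicate 1 (-0.19, adjusted p = 0.0015) and with the total count as the only scaling (-0.22, 0.016), higher in M2 in both. On the cytokine receptors, IFNGR1 was lower in M1 (-0.29), while IL4R (0.29) and IL13RA1 (0.69) were higher in M1; IL4R was not called with the total count as the only scaling. The list of polarizing receptors and their kinases had 13 tested genes, of which 7 were called higher in M1 and 1 higher in M2, with a median of 0.29.

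STAT2, which acts in type I interferon signalling, was at 2.26 and STAT3 at 1.62, both higher in M1. STAT6, the factor of interleukins 4 and 13, was higher in M1, with 204, 210 and 207 against 143, 152 and 148 CPM (0.49 ± 0.06, adjusted p = 1.1e-06). STAT5B was not called, except higher in M2 with the total count as the only scaling (-0.23, adjusted p = 0.011).

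The feedback inhibitors split. SOCS3, which restrains cytokine receptors that signal through STAT3, was at 188 ± 5.18 CPM in M1 and 18.8 ± 1.48 in M2 (3.32 ± 0.07). CISH, another member of this family and a known target of STAT5 and STAT6, went the other way, with 7.93, 6.27 and 5.92 CPM in M1 and 72.5, 88.7 and 84.1 in M2 (-3.61 ± 0.11, adjusted p = 5.1e-15). It is the gene whose promoter stretches, printed above, hold 4 of the gamma-activated forms. SOCS1 was at 0.34 with overlapping groups, and its call was lost without M1 replicate 1 or 2 or M2 replicate 1 or 2 (adjusted p up to 0.17). SOCS2 (1.32) and SOCS7 (-0.22) likewise lost their calls when single libraries were left out, with adjusted p up to 0.16 and 0.15. SOCS2 lost it without M1 replicate 2 or M2 replicate 1 or 3, and SOCS7 without any of M1 replicates 1 to 3 or M2 replicate 2 or 3.

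IRF1, an interferon-induced factor (hg38 chromosome 5, 132481609 to 132490798), was at 744, 715 and 703 CPM in M1 and 44.3, 47.5 and 55.1 in M2, a difference of 3.88 ± 0.07 (adjusted p = 1.0e-17). IRF5, a factor of inflammatory macrophages, was at 14.5 ± 2.73 against 1.33 ± 0.556 CPM (3.42), and IRF7, which amplifies interferon production, at 1.84. IRF2 (0.94) and IRF3 (0.78) were also higher in M1. IRF8 was not called (-0.03, adjusted p = 0.84). IRF9 was not called (0.20), except without M2 DMSO replicate 1 (0.48, adjusted p = 0.043). Its gene model overlaps another on the same strand, with 523 counts in IRF9 and 122 in the other over the 6 libraries. None of the 7 tested IRF genes was called higher in M2, and IRF4 had too few counts to be tested.

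Among 48 tested myeloid transcription factors, 28 were called higher in M1 and 11 higher in M2 (median 0.41). BATF2, an interferon-induced partner of IRF proteins, was at 76.0 ± 5.52 against 1.95 ± 0.288 CPM (5.28). EGR3 (2.56), CEBPE (2.01) and NR4A1 (1.98) were also higher in M1. On the M2 side were RUNX2 (-1.38), MITF (-1.27), BATF (-1.01) and ID2 (-0.95). Over all 1028 tested genes that the table assigns to a transcription factor family, 280 (27.2%) were called higher in M1 and 142 (13.8%) higher in M2, against 21.6% and 20.9% of all genes. At least 2-fold were 62 (6.03%) and 41 (3.99%), against 6.63% and 6.07%.

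All 43 tested genes of the type I interferon list were called higher in M1, against 21.6% of all genes, and 41 of them by at least 2-fold. Their median was 2.50, and 2.68 without M2 DMSO replicate 1, with 43 of 43 called either way. RSAD2, the antiviral protein viperin, was at 91.7, 89.5 and 88.9 CPM in M1 and 2.08, 1.71 and 1.14 in M2 (5.78 ± 0.13, adjusted p = 7.8e-17). TRIM22, an antiviral ubiquitin ligase, was at 441 ± 12.7 against 11.7 ± 3.92 (5.25), and IFITM3, which blocks virus entry, at 77.9 ± 5.53 against 1.63 ± 0.718 (5.56). IFI44L (6.41) and IFI44 (5.96) showed larger differences at lower levels. IFIT1 stood at 143, 134 and 131 CPM in M1 and 48.9, 29.0 and 25.3 in M2 (1.98 ± 0.16). For IFIT1 the groups did not overlap, and replicate 1 was the highest of the M2 libraries. IFI27 went from 4.88 to 6.14 without that replicate, where M2 levels were 0.819, 0.177 and 0.114 CPM.

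**Figure D2:**
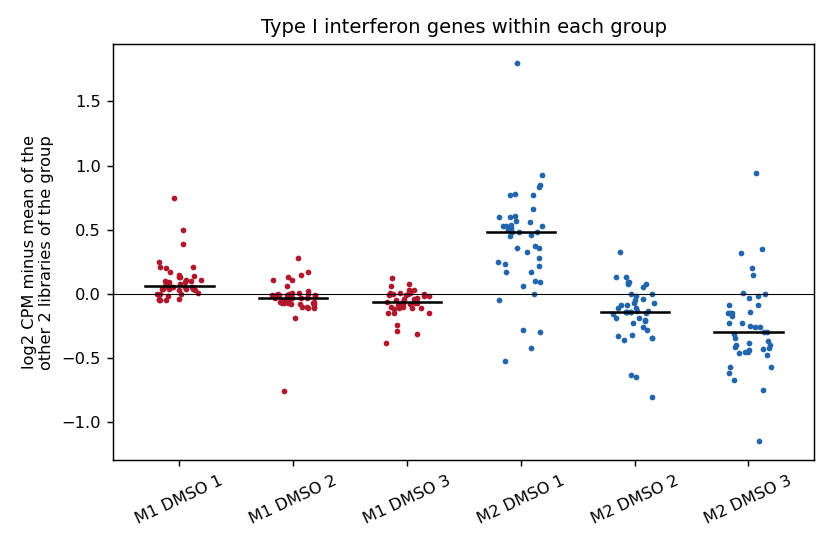
Points are the 43 tested type I interferon genes in each library, as log2 CPM minus the mean of its group's 2 remaining libraries (y axis), with black bars at the median. The median of M2 DMSO replicate 1 lies at 0.48, with 37 of 43 genes above 0, and those of the other 5 libraries lie between -0.30 and 0.06.

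Of the list of interferon gamma targets, which shares no gene with the list above, 29 of 29 tested members were called higher in M1 (median 4.46). IDO1, which degrades tryptophan (ENSG00000131203, chromosome 8, 39902275 to 39928444), was at 235, 214 and 224 CPM in M1 and had no count in any M2 library. Set against a floor of 3 counts over the M2 group, it was at least 3763-fold higher in M1. CXCL9, a chemokine that draws activated T cells, also had no count in M2 and 101 to 116 CPM in M1, which makes it at least 1808-fold higher. CXCL10, of the same family and locus (chromosome 4, 76021117 to 76023497), was at 365, 345 and 335 CPM in M1 and 0.504, 0.588 and 0.342 in M2 (9.49 ± 0.13, adjusted p = 7.2e-20). Other members were SERPING1, the inhibitor of the first complement component (8.52), and SECTM1 (7.76). Floors and intervals here cover counting error only.

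The guanylate-binding proteins, interferon-induced GTPases that attack intracellular pathogens, lie side by side on chromosome 1. GBP2 (89106132 to 89150456) was at 622, 619 and 614 CPM in M1 and 0.819, 0.530 and 0.342 in M2, a difference of 10.10 ± 0.14. GBP4 had 4821 counts in M1 and none in M2, at least 1819-fold higher against the floor. GBP5 had 26581 counts over the M1 libraries and 2 over the M2 libraries, a ratio of 15041 (exact 95% binomial interval 4163 to 124202), and GBP1 had 22510 and 3, a ratio of 8491 (2905 to 41179). GBP3 was at 67.6 ± 2.98 against 1.55 ± 0.772 CPM (5.46). All 6 tested members of the list, which also holds RNF213, were called higher in M1. The median was 11.49 as fitted and 10.46 with GBP4 set to its bound. The apolipoprotein L genes on chromosome 22 moved in the same direction, 5 of 5 tested, from APOL6 (951 ± 18.2 against 174 ± 6.32 CPM, 2.45) to APOL4 (92.7 ± 1.45 against 0.450 ± 0.259, 7.64). Near-identical copies in both families make single members uncertain.

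Genes of antigen presentation were mostly higher in M1. TAP1, which pumps peptides into the endoplasmic reticulum (chromosome 6, 32845209 to 32853978), stood at 1329, 1247 and 1260 CPM in M1 and 56.1, 54.2 and 58.1 in M2 (4.51 ± 0.06, adjusted p = 5.0e-20). Its partner TAP2 was at 3.16, the MHC class I activator NLRC5 at 2.93 and the peptide trimmer ERAP2 at 2.29. The class I chains HLA-B (1.52), HLA-C (1.57) and HLA-E (1.85) differed by less, from a high level: B2M, the light chain, was at 7031 ± 440 against 2114 ± 413 CPM (1.73). Of 15 tested class I genes, 13 were called higher in M1 (median 1.57), and the chaperones CALR (-0.48) and CANX (-0.17) were called higher in M2. CANX lost its call without M1 replicate 2.

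The interferon-induced proteasome subunits were higher in M1 and the standard subunits that they replace were not called with TMM scaling. With the total count as the only scaling, 2 of the 9 tested members of the proteasome list were called higher in M2. PSMB9 was at 230, 235 and 224 CPM in M1 and 9.51, 9.36 and 11.1 in M2 (4.52 ± 0.10), PSMB10 at 2.47 and PSMB8 at 1.85, with the activator subunits PSME2 at 1.49 and PSME1 at 0.99. PSMB5 (-0.04 ± 0.07, adjusted p = 0.69), PSMB6 (-0.05 ± 0.09, 0.70) and PSMB7 (-0.02 ± 0.06, 0.84) had differences near 0. PSMB9 and TAP1 overlap each other on the chromosome, and no strand setting is known, so reads from the shared stretch could not be told apart.

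MHC class II was low throughout and higher in M1 for 12 of 12 tested genes (median 3.08). CIITA, the master switch of class II, was at 32.2, 33.9 and 36.6 CPM in M1 and 2.33, 2.53 and 2.68 in M2 (3.76 ± 0.17). HLA-DRA reached 10.1, 10.7 and 8.14 CPM in M1, against 0.252, 0.177 and 0.0570 in M2 (5.86 ± 0.33). HLA-DPA1 had 230 counts over the M1 libraries and 2 over the M2 libraries, a ratio of 130 (35.6 to 1081). HLA-DQB1 had no count in M2 and was at least 20.7-fold higher. HLA-DPB1 was not tested, with 11 counts, and its model overlaps that of HLA-DPA1.

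Of 19 tested genes of costimulation, 12 were called higher in M1 and 3 higher in M2 (median 0.43). CD274, the inhibitory ligand PD-L1, was at 209, 202 and 198 CPM in M1 and 9.14, 5.65 and 9.12 in M2 (4.67 ± 0.12). CD40 was at 184 ± 7.74 against 60.2 ± 1.79 CPM (1.61), and CD80 at 2.02 ± 0.187 against 0.0778 ± 0.0901 (4.54). CD86, the other ligand of CD28, which is often used as an M1 marker, was lower in M1, with 45.5, 45.2 and 42.9 CPM against 146, 118 and 123 in M2 (-1.54 ± 0.08, adjusted p = 2.7e-11). SLAMF1 (-2.45) and TNFSF9 (-0.42) were also higher in M2, and SLAMF7 (4.09) higher in M1.

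**Figure D3:**
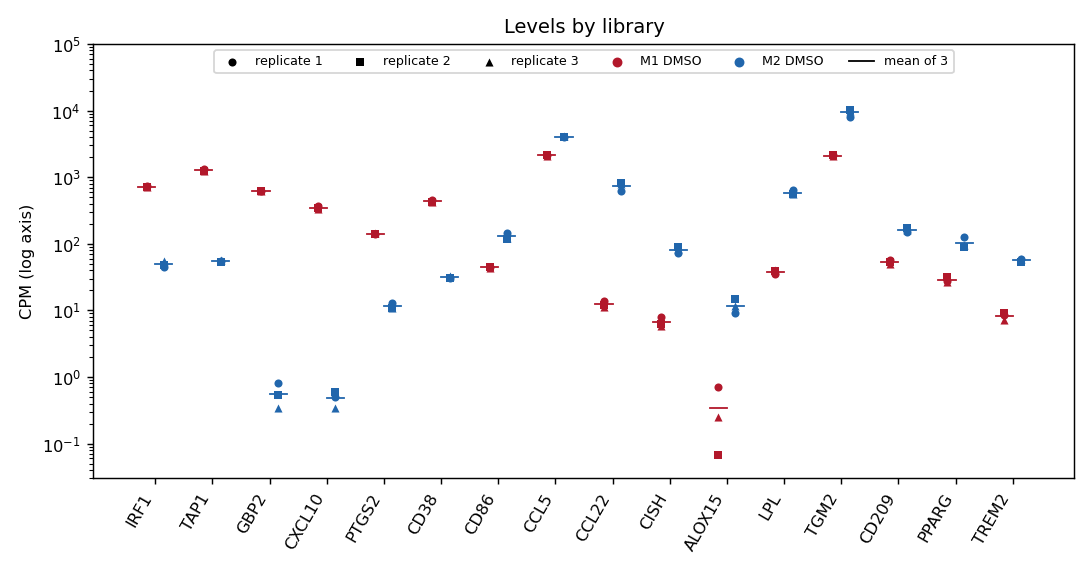
CPM (log axis) of 16 genes in each of the 6 libraries, M1 DMSO in red and M2 DMSO in blue, with a symbol for each replicate and a line at the mean of 3. The M1 and M2 libraries do not overlap for any of these genes, and CD86 and CCL5, listed as M1 markers, lie higher in M2.

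Of 24 tested genes of the NF-kB pathway, 19 were called higher in M1 and 1 higher in M2 (median 0.60). The inhibitors TNFAIP3 (226 ± 3.51 against 64.9 ± 0.454 CPM, 1.80) and CYLD (1.55), NFKBIZ (1.88) and the target TNFAIP2 (2.96) had the largest differences. The subunit RELA was at 0.96. BIRC3 was called higher in M2 (-0.50). Among inflammasome genes, 13 of 15 were called higher in M1 and none higher in M2 (median 1.67): the DNA sensor AIM2 (32.0 ± 1.44 against 0.323 ± 0.255 CPM, 6.62, and 7.25 without M2 DMSO replicate 1), the peptidoglycan sensor NOD2 (3.82), MEFV (3.37) and CASP1, which cleaves interleukin 1 beta (3.29). Of 9 Toll-like receptor genes, 7 were called higher in M1, including TLR8 (5.98) and TLR2 (1.85). CD180, a relative of TLR4 on B cells and macrophages, was the exception, with 0.143, 0.202 and 0.509 CPM in M1 and 12.5, 10.4 and 9.06 in M2 (-5.15 ± 0.29).

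Interleukin 1 beta was abundant in both states. IL1B stood at 10655, 10644 and 9986 CPM in M1 and 5639, 5528 and 5747 in M2 (0.89 ± 0.06), so its lowest M2 library held 5528 CPM. TNF was at 160, 166 and 154 against 64.0, 64.3 and 65.4 (1.31 ± 0.09) and IL1A at 221 ± 3.84 against 96.0 ± 21.6. The receptor antagonist IL1RN was lower in M1, at 2147 ± 77.8 against 3472 ± 117 CPM (-0.69). IL18BP, which neutralises interleukin 18 (4.54), IL32 (3.47), EBI3 (2.12) and the B cell factor TNFSF13B (4.54) were higher in M1. IL1RL1, the receptor for interleukin 33 (-3.17), IL18R1 (-1.34), TNFSF14 (-1.07) and CSF1 (2650 ± 42.5 against 4218 ± 427 CPM, -0.67) were higher in M2. IL10 was low, at 0.175 ± 0.128 and 0.675 ± 0.178 CPM (-1.87), and lost its call without M1 replicate 1 (adjusted p = 0.051). IL6 had 1 count in M1 and none in M2, IL12A 3 and none, and IL12B none in either.

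Chemokines of the CC family lay on both sides, with 4 of 12 tested called higher in M1 and 5 higher in M2, and of 11 tested CXC and CX3C genes 8 were called higher in M1. On the M1 side were the CXCR3 ligands named above, CXCL11 (4.94 ± 0.812 against 0.0970 ± 0.118 CPM, 5.53), CXCL8, which draws neutrophils (8000 ± 122 against 2763 ± 387 CPM, 1.53), CXCL16 (1.79) and the CC chemokines CCL8 (189 ± 2.58 against 3.68 ± 0.522 CPM, 5.68), CCL20 (1.28), CCL2 (1.25) and CCL7 (0.99). CCL22, a ligand of CCR4, had the largest called difference on the M2 side in a ranking of protein-coding genes. The ranking took genes with a mean of at least 5 CPM over the 6 libraries and groups that did not overlap. It stood at 13.8, 11.9 and 11.1 CPM in M1 and 630, 808 and 787 in M2 (-5.92 ± 0.11, adjusted p = 7.2e-18). CCL4 was at 74.3 ± 4.32 against 328 ± 58.3 CPM (-2.14), its copy CCL4L2 at -1.27, and CCL3 at 365, 374 and 321 in M1 against 409, 869 and 782 in M2 (-0.96). CCL5, listed as an M1 marker, was at 2185, 2149 and 2111 CPM in M1 and 4083, 3996 and 4142 in M2 (-0.92 ± 0.05). CX3CL1 (-3.84) and PPBP (3.05 ± 1.12 against 6.99 ± 0.735 CPM) were the 2 CXC and CX3C genes called higher in M2. CCL17 had 1 count in M1 and 6 in M2, and CCL18 none.

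The list of M1 markers had 23 of 30 genes tested, of which 21 were called higher in M1 and 2, CD86 and CCL5, higher in M2. Members not yet described include CD38, an NAD-consuming ectoenzyme (451, 424 and 425 against 30.3, 31.2 and 32.7 CPM, 3.79 ± 0.08), the Fc receptor FCGR1A (2.50), TNFSF10 (3.18), TNFAIP6 (5.02) and ACOD1, which makes itaconate (5.47 ± 0.440 against 0.276 ± 0.119 CPM, 4.26). NOS2 had 11 and 13 counts and was not tested.

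Of 30 genes on the list of M2 markers, 18 were tested, and 12 of these were called higher in M2, against 20.9% of all genes, and 2 higher in M1 (median -1.34). ALOX15, a lipoxygenase induced by interleukins 4 and 13, was at 0.715, 0.0674 and 0.254 CPM in M1 and 9.14, 14.8 and 11.6 in M2 (-5.10 ± 0.40). TGM2, a crosslinking enzyme, had high counts in both states, with 2120, 2136 and 2090 CPM in M1 and 8021, 10191 and 9961 in M2 (-2.15 ± 0.07). CD209 was at 53.5 ± 3.21 against 161 ± 11.1 CPM (-1.59), the beta-glucan receptor CLEC7A at -1.14, the IgE receptor FCER2 at -1.58 and CTSC at -0.37. CLEC10A and CD163 went against the list. CLEC10A, a galactose lectin, was at 22.6, 22.6 and 21.8 CPM in M1 and 1.45, 1.29 and 1.54 in M2 (3.96 ± 0.14), and CD163, the haemoglobin receptor, at 28.1, 29.3 and 24.9 against 14.7, 16.7 and 15.6 (0.81 ± 0.09). CCL13 and KLF4 were not called. CCL24 was not called except without M2 DMSO replicate 1 (-0.89, adjusted p = 0.026) or 3 (-0.86, 0.048) and with the total count as the only scaling (-0.85, 0.028). FN1 was not called except without M1 DMSO replicate 2 (-1.22, adjusted p = 0.0029) or M2 DMSO replicate 3 (-0.87, 0.034), by limma-voom (-0.78, 0.041), without the filter (-0.69, 0.031) and with the total count as the only scaling (-0.82, 0.035). MRC1, CCL18 and MAOA had no count in any of the 6 libraries, and ARG1 had 8 counts in M1 and 15 in M2.

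A list of further genes that interleukin 4 induces in human monocytes had 22 tested members, 15 called higher in M2 and 4 higher in M1 (median -0.94). The protease inhibitor SPINT2 (6.82 ± 0.395 against 129 ± 6.53 CPM, -4.24) and the lipid-presenting CD1C (-4.37) and CD1A (-3.25) were on the M2 side, and P2RY14 (4.53), BATF3 (1.23), BCL6 (0.95) and TFRC (0.39) on the M1 side. IGHE, the constant segment of IgE, had 356 counts over the M2 libraries and none in M1, at least 105-fold higher. Further genes came from the 15 protein-coding ones with the largest M2-side differences at a mean of 5 CPM or more over the 6 libraries. They were TOGARAM2 (15.4 ± 1.64 CPM in M2, -4.94) and the inhibitory lectin SIGLEC10 (7.43, 5.73 and 4.90 against 147, 148 and 143 CPM, -4.61 ± 0.10). Also among them were the neuropeptide receptor VIPR1 (-4.01), CAMK2B (-3.84), the adenylate cyclase ADCY1 (-3.78), the hyaluronan synthase HAS3 (-3.71), the adrenergic receptor ADRA2B (-3.65) and PHOSPHO1 (-3.65).

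Of 18 tested eicosanoid genes, 8 were called higher in M1 and 7 higher in M2. Transcripts of the inducible cyclooxygenase and of a prostaglandin E synthase were higher in M1: PTGS2 was at 141, 138 and 144 CPM against 13.0, 10.9 and 10.7 (3.61 ± 0.09), and PTGES at 210 ± 11.8 against 17.1 ± 1.68 (3.62). The constitutive cyclooxygenase PTGS1 (525 ± 9.15 against 1085 ± 26.3 CPM, -1.05) and the leukotriene receptor CYSLTR1 (6.58, 6.74 and 7.44 against 196, 162 and 155 CPM, -4.62 ± 0.12) were higher in M2. ALOX5 was higher in M1 (1.29).

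Of 22 tested genes of PPAR signalling and lipid droplets, 14 were called higher in M2 and 4 higher in M1 (median -0.45). LPL, which hydrolyses lipoprotein triglyceride, was at 35.4, 38.5 and 40.2 CPM in M1 and 642, 551 and 551 in M2 (-3.93 ± 0.08, adjusted p = 1.0e-17). PPARG itself was at 28.1, 32.2 and 26.7 against 128, 89.6 and 96.0 CPM (-1.85 ± 0.11), and CD36, a fatty acid and scavenger receptor, at 46.5, 47.5 and 46.2 against 161, 121 and 127 (-1.54 ± 0.09). The binding proteins FABP4 (0.134 ± 0.0656 against 8.30 ± 4.46 CPM, -5.85) and FABP3 (-2.42) and the glycerol phosphate dehydrogenase GPD1 (-3.53) were higher in M2. For FABP4 the M2 libraries spread from 5.30 to 13.4 CPM, with replicate 1 the highest. DGAT2 (0.52), PPARD (0.46), PNPLA2 (0.36) and PLIN3 (0.25) were the 4 called higher in M1, of which PNPLA2 and PLIN3 were not called with the total count as the only scaling. Without M2 DMSO replicate 1, PNPLA2 was at 0.19 and PLIN3 at 0.14.

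Sterol genes were mixed. The cholesterol exporters ABCA1 (651 ± 14.9 against 318 ± 38.9 CPM, 1.03) and ABCG1 (1.31) were higher in M1, whereas APOC1 (-1.71), SCARB1 (-1.04) and NPC1 (-0.84) were higher in M2. Of 23 tested genes of cholesterol synthesis and uptake, 3 (13.0%) were called higher in M1, among them STARD4 (1.06) and SQLE (0.48), and 6 (26.1%) higher in M2. The shares over all genes were 21.6% and 20.9%. LIPA, the lysosomal lipase, was at 723 ± 5.03 against 1976 ± 265 CPM (-1.45).

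Transcripts of the respiratory chain and the citric acid cycle were mostly lower in M1, by small amounts. Of 44 nuclear genes of the respiratory chain, 28 were called higher in M2 and 1 higher in M1, none of them by 2-fold (median -0.37, and -0.38 without M2 DMSO replicate 1). ATP5MC3, an ATP synthase subunit, was at 74.8, 83.5 and 72.7 CPM in M1 and 132, 124 and 135 in M2 (-0.76 ± 0.07). The exception, NDUFA9 (0.41), lost its call without M1 replicate 1 or 2 or M2 replicate 3, and with the total count as the only scaling. Of 22 genes of the citric acid cycle, 15 were called higher in M2, led by MDH1 (87.6, 95.5 and 87.4 against 221, 191 and 181 CPM, -1.13 ± 0.07), FH (-0.78), IDH3A (-0.66) and IDH2 (-0.65). Higher in M1 were OGDH (0.39) and ACOD1, whose product inhibits the cycle. The 13 protein-coding genes of the mitochondrial genome had a median of -0.08, with 2 called higher in M1 and 1 higher in M2, and all 3 of those calls were lost without 1 or more single libraries: MT-ND2 without M1 replicate 2 or M2 replicate 3, MT-ND5 without M1 replicate 1 or 3 or M2 replicate 1 or 3, and MT-ND6 without M1 replicate 3. With the total count as the only scaling, none of the 13 was called higher in M1 and 5 were called higher in M2 (median -0.21), and without M2 DMSO replicate 1 the counts were 2 and 3. Of 22 genes of fatty acid oxidation, 5 (22.7%) were called in each direction (median 0.13). That is near the shares over all genes, 21.6% and 20.9%.

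**Figure D4:**
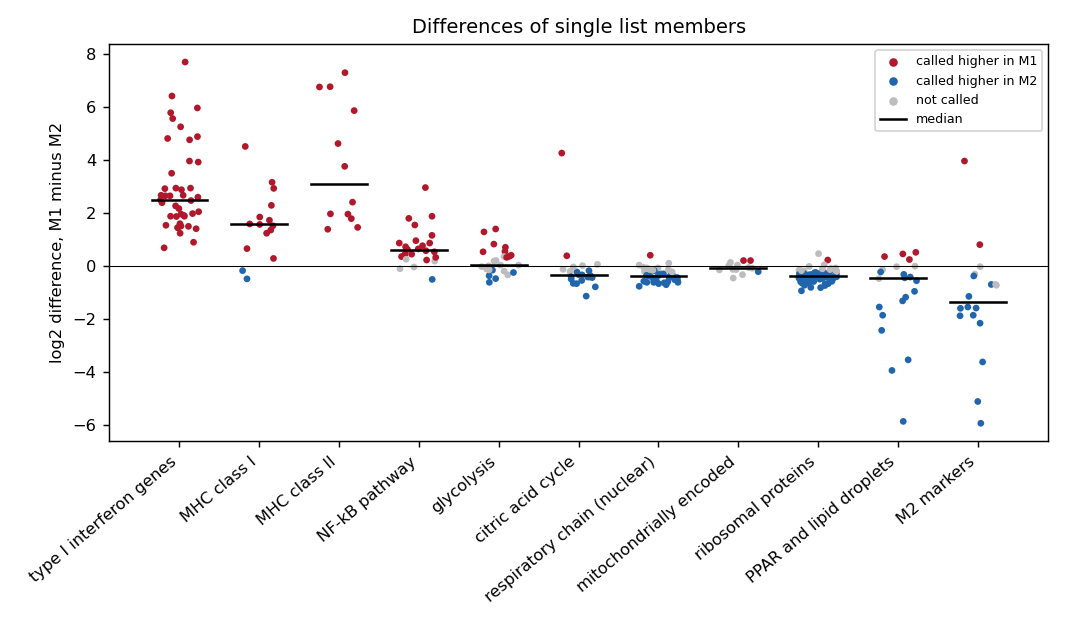
Each point is the log2 difference (M1 minus M2, y axis) of 1 tested member of the list named on the x axis, coloured by its call, with a black bar at the median. Type I interferon genes lie wholly above 0, and the respiratory chain and ribosomal proteins cluster just below 0 with medians of -0.37 and -0.39. The mitochondrially encoded genes lie on both sides of 0, with a median of -0.08.

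Glycolysis did not move as a block: of 25 genes, 9 were called higher in M1 and 5 higher in M2, with a median of 0.04. With the total count as the only scaling, 7 were called higher in M1 and 10 higher in M2, with a median of -0.09. Higher in M1 were the hexokinase HK2 at 692, 674 and 665 against 237, 257 and 276 CPM (adjusted p = 1.0e-12 by edgeR) and the glucose transporter SLC2A3 at 128 ± 5.90 against 52.3 ± 1.25 (1.29), together with the lactate exporter SLC16A3 (0.71). HK1 (-0.61), SLC16A1 (-0.47), ENO2 (-0.36) and PFKFB4 (-0.24) were higher in M2, and PFKFB4 lost its call without M2 replicate 2. In amino acid metabolism, the tryptophan enzymes WARS (3864 ± 92.0 against 771 ± 15.3 CPM, 2.32), KYNU (1.89) and TDO2 (1.00) were higher in M1 and QPRT (5.28 ± 0.490 against 21.2 ± 0.994 CPM) in M2. GCH1, which makes the cofactor of nitric oxide synthase, was at 41.5 ± 0.735 against 1.88 ± 0.263 CPM (4.46).

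Ribosomal protein genes were lower in M1 by a small step: 60 of 78 were called higher in M2 and 1, RPS9, higher in M1 (0.23, at 0.14 without M2 DMSO replicate 1, lost without M1 replicate 2 and with the total count as the only scaling). The median was -0.39, and without M2 DMSO replicate 1 it was -0.37 with 69 called higher in M2. None of these called differences reached 2-fold. RPL5 was at 202, 220 and 208 CPM in M1 and 438, 327 and 341 in M2 (-0.81 ± 0.09). M2 DMSO replicate 1 departed from its group in several of these genes in either direction: RPL26 was at 5.80 CPM there against 18.9 and 22.8 in replicates 2 and 3, and RPS23, at -0.80 in all, was at -0.25 without it. RPL23 went from -0.72 to -0.45.

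Oxidative killing and its defences also differed. The NADPH oxidase subunits CYBB (1083, 986 and 1025 against 308, 295 and 298 CPM, 1.78 ± 0.06) and NCF1 (827, 802 and 748 against 98.6, 114 and 111, 2.88 ± 0.07; pseudogene copies exist) were higher in M1. SOD2, the mitochondrial superoxide dismutase, stood at 1913, 1839 and 1819 against 171, 167 and 170 CPM (3.45 ± 0.05, adjusted p = 3.5e-19). Of 20 tested antioxidant genes, however, 11 were called higher in M2 and 2 higher in M1 (median -0.22), with CAT (-1.74), GSR (-0.92), PRDX1 (-0.84) and HMOX1 (-0.68) on the M2 side and NFE2L2 (0.62) with SOD2 on the M1 side. For iron, the ferritin chain FTH1 was at 6633, 6195 and 6005 CPM in M1 and 1153, 2304 and 2273 in M2 (1.72 ± 0.16, and 1.46 without M2 DMSO replicate 1), and its pseudogenes share reads with it. The metal-binding MT2A (2.41) and MT1X (1.80) were higher in M1.

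Transcripts of surface receptors of phagocytes differed in both directions. TREM2, a lipid sensor, was at 8.58, 9.24 and 7.13 CPM in M1 and 59.7, 54.1 and 59.9 in M2 (-2.80 ± 0.11), while TREM1, which amplifies inflammation, went the other way (23.2 ± 1.14 against 10.6 ± 0.583 CPM, 1.14). ANXA1 (-2.33), SORL1 (-4.57) and MFGE8 (-0.80) were higher in M2 and SIGLEC1 (287 ± 17.7 against 45.1 ± 3.40 CPM, 2.67), SCARF1 (2.75) and CLEC5A (2.47) higher in M1. Of 16 tested efferocytosis genes, 9 were called higher in M2 and 5 higher in M1 (median -0.45). Among leukocyte immunoglobulin-like receptors, LILRA6 (2.39) and LILRB3 (2.22) were higher in M1 and LILRA1 (-2.09), LILRB1 (-1.41) and LILRA2 (-1.28) higher in M2. Chemoattractant receptors PTAFR (345 ± 11.6 against 25.8 ± 2.45 CPM, 3.74), C3AR1 (2.19) and CCR1 (1.54) were higher in M1, and CXCR4 (-1.42) and CX3CR1 (-0.94) in M2. P2RX7, the ATP-gated channel upstream of the inflammasome, was at 529, 519 and 512 against 49.7, 49.0 and 43.6 CPM (3.45 ± 0.07).

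Secreted effectors were split. Of 21 tested complement genes, 15 were called higher in M1 and 4 higher in M2 (median 0.89). C1S was at 109, 108 and 106 against 2.02, 1.59 and 1.54 CPM (5.97 ± 0.10), and C3 at 1.23 from a high level (4388, 4121 and 4201 against 1638, 1886 and 1912 CPM). The 4 on the M2 side were ITGAM (-1.16), CFP (-0.65), CD59 (-0.23) and ITGAX (-0.20, not called without M2 replicate 3). A2M, a broad protease inhibitor, was the most counted of these transcripts, with 16281, 15730 and 16028 CPM in M1 and 6495, 5953 and 5909 in M2 (1.39 ± 0.05). In matrix turnover, 12 of 23 genes were called higher in M2, among them TIMP3 (103 ± 2.12 against 386 ± 20.7 CPM, -1.91) and MMP12 (-1.73), and 5 higher in M1, with ADAM28 (1.89), ADAMDEC1 (1.62) and MMP9 (0.33). Of growth factors, INHBA (3336 ± 27.3 against 1237 ± 51.6 CPM, 1.43) and WNT5A (1.42) were higher in M1 and PDGFB (-2.61), GDF15 (-0.99) and VEGFA (-0.77) higher in M2.

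Adhesion and lysosomal genes gave further contrasts. ICAM1 was at 4197 ± 138 against 1403 ± 129 CPM (1.58), ITGAL at 1.55 and VCAM1 at -2.45. CTSS, the protease that trims the class II invariant chain, was at 1854 ± 44.0 against 536 ± 66.9 CPM (1.79), and LYZ at 336 ± 6.70 against 66.8 ± 4.72 (2.33). CTSL had 156 counts over the M1 libraries and 2 over the M2 libraries, a ratio of 88.3 (24.0 to 735). The alarmins S100A8 (30.7 ± 4.37 against 1.94 ± 0.430 CPM, 3.99) and S100A9 (3.15) were higher in M1. Of 28 cell cycle genes, 23 were not called, 3 were higher in M2, among them E2F1 (-1.74) and AURKA (-1.23), and 2 were higher in M1, TOP2A (0.59) and CDK1 (0.70). CDK1 lost its call with the total count as the only scaling and without M1 replicate 2 or 3 or M2 replicate 2 or 3. CDKN1A, an inhibitor of the cell cycle, was at 1308 ± 29.3 against 2512 ± 234 CPM (-0.94). Of 28 cell death genes, 21 (75.0%, against 21.6% of all genes) were called higher in M1 and 3 (10.7%, against 20.9%) higher in M2. The median was 0.48, and the necroptosis effector MLKL (1.80), FAS (1.80) and PMAIP1 (1.45) were among those higher in M1.

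**Figure D5:**
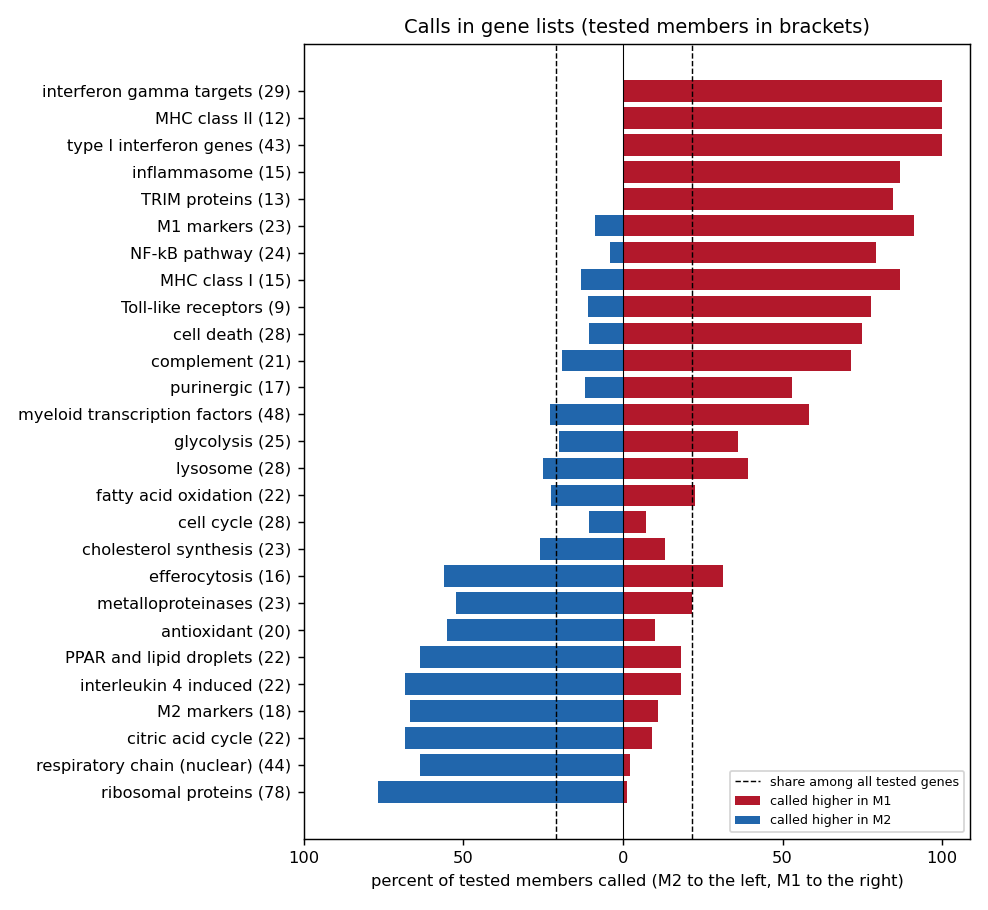
Share of tested members of each list (number in brackets) called higher in M1 (red, to the right) or in M2 (blue, to the left), in percent, with dashed lines at the share among all 15252 genes tested, 21.6% and 20.9%. Both interferon lists and MHC class II reach 100% on the right, followed by the M1 markers at 91.3%, and ribosomal proteins, the respiratory chain, the citric acid cycle, the interleukin 4 list and the M2 markers furthest to the left.

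Lists were written from general knowledge but with earlier results of these data known, so their counts may not be independent of the data. The lists are described by counts, with no test of the list itself. Such counts are to be read against the shares over all genes, 21.6% higher in M1 and 20.9% higher in M2. The labelled cell type was checked against 15 markers of monocytes and macrophages. Of 13 tested, 10 were called higher in M1, among them CD14, LYZ, CTSS and the myeloid factor SPI1 (0.39, and 0.25 without M2 DMSO replicate 1), and 1, ITGAM (-1.16), higher in M2. Of the 10, MARCO lost its call without M1 replicate 2 or M2 replicate 1, and AIF1 without M1 replicate 2. ITGB2 (0.18) lost its call without M1 replicate 1, in a fit of the 6 libraries alone and with the total count as the only scaling. CSF1R (291 ± 2.80 and 312 ± 19.2 CPM) and CD33 were not called, except higher in M2 without M2 DMSO replicate 1 (-0.15, adjusted p = 0.0043, and -0.25, 0.044) and with the total count as the only scaling (-0.23, 0.0016, and -0.28, 0.035). MRC1 was at 0, and CD68 had 8 counts in 6 libraries. The model of CD68 overlaps an antisense and a sense model with 235 and 9 counts. Whether reads of CD68 were lost to that overlap was not tested.

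Several defining markers of other cell types were at or near 0. CD3D, CD3E, CD3G and CD2 had 4 counts in all, MS4A1 none, COL3A1 and DCN none, HBB and HBA1 none and EPCAM none. Among those that were called were TRAC (15.9 ± 0.804 against 32.6 ± 5.25 CPM, -1.03), NCAM1 (106 ± 7.12 against 67.0 ± 0.986, 0.66), COL1A1 (116 ± 2.31 against 27.6 ± 5.05, 2.07) and VWF (23.0 ± 0.636 against 67.0 ± 10.5, -1.54). Also called were CSF3R of the neutrophil list (29.3 ± 0.229 against 17.6 ± 0.535, 0.74), FLT3 (-1.14), CD1C (-4.37), CD1A (-3.25) and LAMP3 (1.08) of the dendritic cell list, GNLY (2.17), KRT19 (-1.45) and PAX5 (2.06, and 3.85 without M2 DMSO replicate 1). KRT19 lost its call without M1 replicate 1 or 3 or M2 replicate 2 or 3. The part of other cells in the differences was not tested. In bulk RNA, fewer cells in a state and less RNA per cell cannot be told apart.

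The 6 libraries with MCHP allow the same contrast in libraries whose levels do not enter the differences above. Of the 1937 genes called at least 2-fold in DMSO, 1704 were also called the same way between M1 and M2 with MCHP, and 22 had the opposite sign. No share over all tested genes stands beside these counts, so they cannot be set against a background. Both contrasts share the estimate of spread but no library.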

How the data were processed

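RNA was sequenced from 12 libraries of 4 groups, of which the 6 without MCHP are compared here. The authors deposited 1 table of raw counts per gene with gene lengths, whole numbers without normalization. Tools listed in the submitters' processing notes, without their roles, are featureCounts 1.5.0-p3, HISAT2 2.0.5, fastp, DESeq2 1.20.0 and StringTie 1.3.3b, and the build is hg38. Strand handling is not given in the sources used here, and reads of overlapping or near-identical genes (HLA, GBP, IFIT, APOL, LILR, C4A and C4B, chemokine and metallothionein copies, FCGR1A and FCGR1B) could be shared between them.

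Counts were fitted in R 4.3.3 with edgeR 4.0.16: filterByExpr over 4 groups, TMM scaling, 1 mean per group over all 12 libraries (8 residual degrees of freedom), the quasi-likelihood F-test (two-sided) of M1 DMSO minus M2 DMSO, and Benjamini-Hochberg adjustment at 0.05 over 15252 genes. SEs were derived from F. Genes without a count in a group were set against a floor of 3 counts over that group. On simulated counts for 15252 genes, 59.7%, 71.6% and 92.4% of genes changed 1.5, 2 and 4-fold were recovered in this contrast. Of the calls made there, 8.02% were false. These shares depend on how many genes were changed in the simulation. Whether they hold for the measured counts, where 42.5% of genes were called, was not tested.

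Some genes are not reported here. Members and the 72 lists were chosen with earlier results of these data known. Named genes are the 15 protein-coding genes with the largest called difference in each direction and groups that do not overlap. These had a mean of at least 5 CPM over the 6 libraries. Added to them were up to 6 called members of each list at 1 CPM or more and up to 4 against its majority. All members of the receptor, STAT, IRF, M1, M2 and cell type lists were named too. The rest are genes with no count in 1 group, the most abundant genes, the long noncoding RNAs with the largest change, and the genes that deviate most in M2 DMSO replicate 1. HLA-B, HLA-C, C3, CCL3, IFIT1, PSMB5, PSMB6, PSMB7 and untested list members were named after their values were seen. Same-numbered M1 and M2 libraries did not deviate together (correlations -0.05, -0.01 and -0.05), so no pairing was used. No 2 libraries agreed within sampling noise (chi-square per gene of 2.26 or more between replicates). M2 DMSO replicate 1 stood at 20.5 against replicate 2 and 21.3 against replicate 3. The remaining pairs of replicates lay between 2.26 and 2.81. Alternatives were the size factors of DESeq2, the total count alone, no filter, DESeq2 1.42.0, limma-voom (limma 3.58.1), the 6 libraries alone, a replicate block, a tested minimum log2 difference of 1, protein-coding genes only, and each of the 6 libraries left out.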

Additional observations from a re-analysis of the deposited data

Results flagged for a closer look

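For 9 of the named genes the difference between M1 and M2 in DMSO was itself different from that in the libraries with MCHP, by the interaction term of edgeR's quasi-likelihood test, out of 25 such genes among all 15252. The values are the difference in DMSO minus that with MCHP. It was 0.99 for TLR4 (0.46 in DMSO and -0.53 with MCHP, adjusted p = 1.5e-04), 1.19 for FABP3 (-2.42 and -3.61, 0.0030), 0.73 for SLC7A8 (-1.74 and -2.47, 0.022), 0.65 for SCARB1 (-1.04 and -1.69, 0.019) and 0.48 for HADHA (-0.50 and -0.98, 0.019). It was -1.01 for CCL8 (5.68 and 6.69, 0.022), -0.77 for CD209 (-1.59 and -0.82, 0.0030), -0.54 for LGALS9 (2.57 and 3.11, 0.022) and -0.50 for NFKBIZ (1.88 and 2.38, 0.031). TLR4 was the only one of these 9 whose sign differed between DMSO and MCHP. With 3 libraries a group, single libraries were not examined for outliers by rule.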

How the results depend on the processing

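The counts of called genes stayed within 1.5 times of the reported ones under every alternative but a tested minimum log2 difference of 1, which left 1028 genes, 596 higher in M1 and 432 higher in M2. In all, 5531 genes were called in a fit of the 6 libraries alone, 6243 by DESeq2, 6537 by limma-voom and 6387 with a replicate block on the number. Block and main fit shared 6280 calls, and the numbers do not pair the libraries. With 1 library left out, 5620 to 7216 genes were called (2852 to 3663 higher in M1 and 2768 to 3553 higher in M2), and 979 to 1051 and 887 to 947 at least 2-fold. The highest was without M2 DMSO replicate 1. MT-ATP8, not called at -0.45, was called at 0.48 without that library (adjusted p = 0.0072 by edgeR) and ranged from -0.77 to 0.48 with 1 library left out. Of 15 settings, list medians changed sign in 1 for glycolysis, cholesterol synthesis and fatty acid oxidation, in 2 for the cell cycle and coagulation, in 4 for the stress response, in 5 for the pentose phosphate pathway and in 9 for the interleukin 1 family. Of genes with a mean of 1 to 10 CPM, 32.8% were called, against 62.5% of those at 100 CPM or more.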

Other observations

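Of 1634 long noncoding RNAs tested, 433 (26.5%) were called, against 42.5% of all genes. Of these, 147 were at least 2-fold higher in M1 and 125 (7.65% of those tested) at least 2-fold higher in M2, the latter against 6.07% of all genes. NRIR, a negative regulator of interferon genes next to RSAD2, was at 3.42 ± 0.570 CPM in M1 and 0.269 ± 0.325 in M2 (3.68 ± 0.51, adjusted p = 8.2e-06), a difference of 5.17 without M2 DMSO replicate 1. AC239798.2 was at 20.0 ± 1.47 against 1.95 ± 0.361 CPM (3.36). On the M2 side, VIPR1-AS1, antisense to VIPR1, was at 0.208 ± 0.147 against 2.25 ± 0.842 CPM (-3.41 ± 0.49). Since VIPR1 differed the same way (-4.01) and the strand setting is unknown, their reads could not be told apart. Of the 118 tested models that the table leaves unannotated, 59 were called (an even split of called and not called, against 42.5% of all genes called). At least 2-fold higher were 21 (17.8%) in M1 and 19 (16.1%) in M2, against 6.63% and 6.07% of all genes. GBP1P1, a pseudogene beside the GBP genes, was at 47.4 ± 0.666 against 0.104 ± 0.132 CPM (8.79, and 10.32 without M2 DMSO replicate 1).

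Of the genes tested, 14 had no count in M2 and at least 10 in M1, and 10 had none in M1 and at least 10 in M2. Beside those named in the report, CD7 (111 counts, at least 41.9-fold), RTP4 (73, at least 27.5-fold) and FAM3B (56, at least 21.1-fold) were seen in M1 only, and RNF165 and WNT5B (72 counts each, at least 21.2-fold) in M2 only. By length-scaled level (TPM), the 10 most abundant protein-coding genes of each state shared MT-CO1, FTL, MT-ND4, TIMP1, MT-CO2 and MT-ND1. CXCL8, IL1B, FTH1 and A2M were in the M1 set only and CCL5, MT-ND4L, MT-CO3 and MT-ATP6 in the M2 set only. Without M2 DMSO replicate 1, MT-CO3 (-0.23, adjusted p = 0.0013 by edgeR) and MT-ATP6 (-0.21, 0.0018) were called higher in M2.

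Among the genes at 5 CPM or more in which M2 DMSO replicate 1 differed most from replicates 2 and 3 were RN7SL2 (log2 deviation 2.26), MT-ATP8 (1.90) and IFI27 (1.80) above them and MT-TY (-2.88), MRPL12 (-2.31) and RPL26 (-1.82) below them. When that library was left out, MRPL12 was called at -0.45 (adjusted p = 0.0076 by edgeR). RPL26 moved from 0.47 to 0.08 and RN7SL2 from -0.86 to 0.17. In M2 DMSO replicate 1 the lists with the largest median deviations were the type I interferon genes (0.48) and the guanylate-binding proteins (0.46, 5 of 6 higher). The pair of lists is set against 0.28 for the next list of more than 5 genes, coagulation.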
